A study of Mus musculus with 21 samples.

Results

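Amiodarone was given to newborn mice after resection of the heart apex, and the RNA of their hearts was compared here with that of hearts after resection alone. The amiodarone group held 3 libraries from ICR mice that had the tip of the ventricle removed at 1 day of age, received the drug under the skin in a course of 7 consecutive days, and gave apex tissue at postnatal day 7. The control group held 3 libraries of the same strain, age, operation and tissue, labelled as resection alone. Whether its animals received a vehicle injection is not stated, doses are not given, and separate animals behind the 3 libraries are not stated, so p-values measure only the spread between libraries, which may be technical. Metoprolol, propranolol, lidocaine and ivabradine groups, 3 libraries each and 12 in all, had the same resection and injection course, and served as a second comparison for amiodarone that uses no control library. The 6 libraries of the main comparison are part of 21 in the series, whose last group received isoproterenol, a β-adrenergic agonist, and helps only to estimate the spread. Genes were tested if they reached 1 FPKM (fragments per kilobase of transcript, scaled to the mapped fragments of the library) in at least 3 of the 6 libraries, which kept 12171 of 18762 genes.

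Amiodarone is an iodine-rich anti-arrhythmic drug that prolongs the cardiac action potential by blocking repolarising potassium channels, chiefly the channel encoded by Kcnh2. It also blocks sodium and calcium channels and antagonises adrenergic receptors, it interferes with thyroid hormone action, and as a cationic amphiphilic molecule it collects in lysosomes, where it hinders phospholipid breakdown. The newborn mouse heart can regrow a resected apex through division of existing cardiomyocytes, a capacity that is lost within the first days of life while the muscle takes on its adult form. The question here is how the drug, given during that window, alters the transcripts of the heart after the operation.

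As deposited, 1053 genes were higher and 2561 lower with amiodarone than after resection alone, 8.65% and 21% of the genes tested (limma on log2(FPKM + 1), Benjamini-Hochberg adjusted p at most 0.05). Without amiodarone 2 the counts were 642 higher and 1411 lower, without control 2 they were 661 and 1480, and without amiodarone 1 the lower count was 1686. The changes of at least 1 on the log2 scale numbered 27 higher and 24 lower. The direction of small changes depended on scale. The median difference of all genes was -0.08 log2 as deposited and -0.01 after median-of-ratios rescaling, which gave 1867 genes higher (15.3%) and 1050 lower (8.63%), or 64.0% of calls in the higher direction against 29.1% as deposited. Differences also followed transcript length. In the shortest of 5 equal classes of transcript length, with a median length of 1188 bases, 1.16% were called higher and 38.9% lower, whereas in the longest class, with a median of 6139 bases, 17.2% were called higher and 7.87% lower. Each library was therefore also corrected for length and GC content, which gave 1628 genes higher (13.4%) and 1112 lower (9.14%). Counts below are as deposited, followed by the rescaled and the corrected counts, and a list near these background shares is no result about its members.

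Size factors were 0.989 to 1.01 in the amiodarone libraries and 1.05 to 1.07 in the controls, and relative depth, read from the steps of low values, was 0.993 to 1.02 with amiodarone and 0.965 to 0.975 in controls. The remaining drug libraries of the series had size factors of 0.961 to 1.01 and relative depths of 0.985 to 1.03. The controls thus lay apart from all drug groups on both measures. The part of this offset and of transcript length in the results was not tested beyond the 3 sets of counts. Absolute depth is unknown. The libraries separated by group on the first principal component, with 54.0% of the variance, and control 1 lay apart from the other controls on the second. Heart muscle was the main tissue in all 6 libraries, with summed cardiomyocyte markers of 47701 to 52439 FPKM with amiodarone and 48277 to 51915 FPKM in controls. Amiodarone library 2 also held lung surfactant transcripts, with Sftpc at 222 FPKM against at most 0.07 FPKM in the other 5 libraries. Control 3 held the most of the skeletal muscle gene Mylpf, at 62.7 FPKM, whereas the amiodarone libraries held 1.73, 11.6 and 30.4 FPKM and the other controls 8.65 and 14.7 FPKM. The 4 Y-linked genes summed to 38.1 to 41.4 FPKM with amiodarone, and to 39.2, 46.6 and 0.980 FPKM in controls 1 to 3. Without amiodarone 2 and control 3, 427 genes were called higher and 867 lower, and named calls lost without both are given with that adjusted p.

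Immediate early genes, which code for transcription factors switched on within minutes by growth factors, calcium or cyclic AMP without new protein synthesis, included Nr4a1, which had the largest difference on the log2(FPKM + 1) scale with all libraries. Of 22 tested members, 12 were higher with amiodarone and 0 lower, against 8.65% and 21% of all genes, and the count was 13 and 0 after rescaling and 14 and 0 after correction. The median difference was 0.44 log2, against -0.08 for all genes. Leaving out 1 library at a time gave 8 to 11 members higher, and leaving out amiodarone 2 and control 3 together gave 9.

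Promoters of a gene that rose and of Fos, the prototype of the group, are shown because both carry the core of the cyclic AMP response element (CRE), the site read by CREB. They are the 250 bases before the start site of the RefSeq model on GRCm38.p6, which is not the mm9 build of the deposited values, on the plus strand at chr15:101266596-101266845 for Nr4a1 and chr12:85473640-85473889 for Fos. Capitals mark each TGACG or its reverse complement CGTCA.
Nr4a1: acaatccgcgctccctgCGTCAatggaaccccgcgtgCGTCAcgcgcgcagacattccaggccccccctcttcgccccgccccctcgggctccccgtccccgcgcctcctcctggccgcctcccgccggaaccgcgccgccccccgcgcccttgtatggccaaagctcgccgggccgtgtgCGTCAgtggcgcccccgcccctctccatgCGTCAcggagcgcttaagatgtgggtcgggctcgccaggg
Fos: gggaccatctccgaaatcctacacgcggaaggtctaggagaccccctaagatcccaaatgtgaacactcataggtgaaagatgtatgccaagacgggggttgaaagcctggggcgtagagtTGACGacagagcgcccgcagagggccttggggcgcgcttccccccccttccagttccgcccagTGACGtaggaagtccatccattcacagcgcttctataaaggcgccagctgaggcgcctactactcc
The core matched 4 times in the Nr4a1 window and 2 times in that of Fos, and the full palindrome TGACGTCA, which contains it, matched neither. Over the 18 immediate early genes with a RefSeq promoter, 12 held the core (66.7%), against 19.8% of 27025 genes with a promoter and 30.5% of the tested genes that have one. A match describes letters in this window and not a used site.

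Nr4a1 (Entrez 15370), an orphan nuclear receptor, had 82.2, 79.5 and 48.3 FPKM in the amiodarone libraries and 7.88, 6.73 and 8.40 FPKM in the controls. Every amiodarone library was several times above every control, and the difference was 3.00 ± 0.43 log2 (SE), the largest of all 12171 tested genes on this scale (limma adjusted p = 2.4e-04). With a pseudocount of 0.1 it was 3.14 log2, and Irs2 at 3.26 and H2-Q9 at -5.12 log2 exceeded it in size. H2-Q9 also did so without control 2, at -3.31 against 2.92 log2, and narrowly without amiodarone 3, at -3.248 against 3.244 log2. The Nr4a1 relative Nr4a3 stood at 1.53, 2.18 and 1.67 FPKM with amiodarone and 0.310, 0.370 and 0.300 FPKM in controls, without overlap. Nr4a3 reached the filter only through the amiodarone libraries, so it could enter only as a higher gene; its call, counted among the 12, is no support, and it was lost when any 1 of the 6 libraries was left out and without amiodarone 2 and control 3 (limma adjusted p = 0.165). Atf3, a stress-induced repressor of the ATF family, reached 19.5, 13.1 and 14.5 FPKM with amiodarone and 4.00, 4.73 and 8.21 FPKM in controls (1.36 ± 0.31 log2, limma adjusted p = 0.00429).

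The AP-1 subunit Fos had 17.4, 9.62 and 6.95 FPKM with amiodarone and 1.91, 4.33 and 5.29 FPKM in controls. The groups did not overlap but came close, and the difference of 1.33 ± 0.38 log2 (limma adjusted p = 0.0149) was 1.00 log2 without amiodarone 1 or without control 1, where the limma adjusted p was 0.0806 and 0.0664. Its relative Fosl2 had 19.1, 17.6 and 16.4 FPKM with amiodarone and 6.67, 8.63 and 8.2 FPKM in controls (1.09 ± 0.25 log2, limma adjusted p = 0.00458). Egr1, a zinc finger factor induced through MAP kinases, had 52.1, 33.7 and 32.0 FPKM with amiodarone and 11.1, 16.8 and 20.6 FPKM in controls (1.24 ± 0.22 log2, limma adjusted p = 9.7e-04). Smaller rises in the list were those of the anti-proliferative gene Btg2 (0.92 ± 0.16 log2), of Srf, the factor that binds serum response elements (0.48 ± 0.07 log2), and of Klf4 (0.36 ± 0.07 log2), with all 3 amiodarone libraries above all 3 controls in each. Such separation was found in 13.2% of all tested genes.

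**Figure D1:**
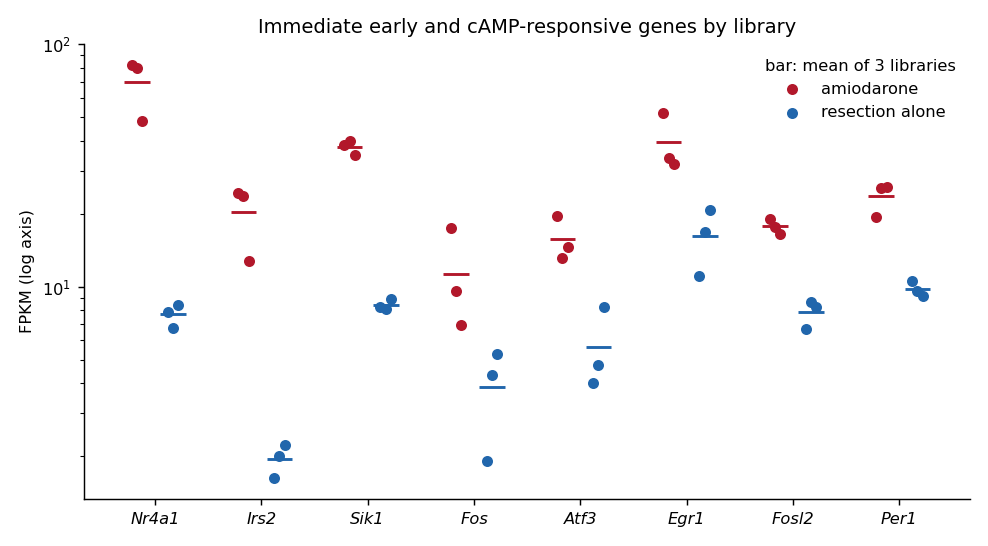
FPKM on a log axis for 8 immediate early and cyclic AMP responsive genes, with a point for each of the 3 amiodarone libraries (left in each pair) and 3 resection alone libraries (right) and a bar at each mean. The groups do not overlap for any of the 8 genes, with Nr4a1 at 48.3 to 82.2 FPKM with amiodarone and 6.73 to 8.40 FPKM after resection alone. Of all tested genes, 13.2% had the 3 amiodarone libraries above all controls.

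CREB is the factor that cyclic AMP and calcium activate. Of 17 tested members of the CREB list, 9 rose and 2 fell, with 10 and 0 after rescaling and again after correction, and 7 to 9 rose with any 1 library left out. Nr4a3, among the 9, reached the filter only through the amiodarone libraries, so its call is no support here either. Irs2 (Entrez 384783), the adaptor of the insulin receptor, had 24.3, 23.7 and 12.7 FPKM with amiodarone and 1.62, 2.01 and 2.23 FPKM in controls (2.80 ± 0.36 log2, limma adjusted p = 1.0e-04). Sik1 (Entrez 17691), a salt-inducible kinase that feeds back on CREB coactivators, had 38.3, 39.8 and 34.8 FPKM with amiodarone and 8.27, 8.11 and 8.89 FPKM in controls, a tight pair of groups that differed by 2.03 ± 0.23 log2 (limma adjusted p = 4.1e-05). The clock gene Per1, also a cyclic AMP target, had 19.3, 25.4 and 25.8 FPKM with amiodarone and 10.5, 9.58 and 9.13 FPKM in controls (1.18 ± 0.19 log2, limma adjusted p = 5.3e-04). Rgs2, which shortens G protein signals, rose by 0.58 ± 0.09 log2, and Pde4b, a phosphodiesterase that degrades cyclic AMP, by 0.48 ± 0.08 log2.

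Of 14 feedback genes of the MAP kinase pathway, 5 were higher (35.7%, against 8.65% of all genes) and 3 lower (21.4%, against 21%) as deposited. The lower share was thus near the background. Counts were 5 and 2 after rescaling and 4 and 1 after correction, and 1 member was lower without amiodarone 2 or without control 2. The ERK phosphatase Dusp5 stood at 12.4, 10.9 and 11.1 FPKM with amiodarone and 5.25, 3.06 and 4.95 FPKM in controls (1.23 ± 0.22 log2, limma adjusted p = 9.1e-04). Dusp8, a phosphatase for JNK and p38, rose by 0.89 ± 0.17 log2, whereas Dusp7 fell to 13.5, 14.2 and 13.8 FPKM with amiodarone, against 22.0, 21.4 and 23 FPKM in controls (-0.64 ± 0.09 log2, limma adjusted p = 2.8e-04). Members of 1 family of phosphatases thus moved in both directions.

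Against the other 4 anti-arrhythmic drugs, 1 of the 22 immediate early genes was called higher and 0 lower, and 0 and 1 of the 17 CREB targets. The group means of Nr4a1 with metoprolol, propranolol, lidocaine and ivabradine ran from 16.6 to 129 FPKM, a range that included the amiodarone mean of 70.0 ± 18.8 FPKM (SD, n = 3), and the difference from their average was 0.39 ± 0.34 log2 (limma adjusted p = 0.823). For Irs2 they ran from 8.13 to 27.6 FPKM, around the amiodarone mean of 20.2 ± 6.50 FPKM. Egr1 was the member called, at 39.3 ± 11.1 FPKM with amiodarone and group means of 18.4 to 27.0 FPKM with the other 4 drugs, a difference of 0.86 ± 0.17 log2 (limma adjusted p = 0.0386). That call was lost without any 1 of the 3 amiodarone libraries, with limma adjusted p of 0.0622 to 0.368. Rgs2 was the CREB target called lower, at -0.36 ± 0.07 log2 (limma adjusted p = 0.0375), also lost without any 1 of them (0.0659 to 0.282).

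Potassium channel subunits are the nearest to the drug's main target. Of 21 tested, 7 were higher (33.3%, against 8.65% of all genes) and 3 lower (14.3%, against 21%) as deposited. After rescaling or correction 9 were higher and 1 lower. The lower share was thus below the background. Against the other 4 drugs 0 were called in either direction, and the list median was 0.02 log2. The higher count was 4 without amiodarone 2 and 3 without control 2, and the lower count was 1 without amiodarone 1, amiodarone 2 or control 1. Kcnh2 itself, the pore subunit of the rapid delayed rectifier, had 49.0, 46.7 and 49.0 FPKM with amiodarone and 42.1, 34.8 and 42.8 FPKM in controls. The libraries did not overlap, but the difference was small, at 0.27 ± 0.08 log2 (limma adjusted p = 0.0132), and without control 2 it was 0.18 log2 with an adjusted p of 0.0856 by limma. Kcnq1, the pore of the slow delayed rectifier, had 25.2, 27.1 and 22.8 FPKM with amiodarone and 24.1, 18.8 and 20.9 FPKM in controls, groups that overlapped at a limma adjusted p of 0.0498. It was 0.110, 0.195, 0.238 and 0.111 without amiodarone 1, amiodarone 2, control 2 or control 3, and 0.303 without amiodarone 2 and control 3.

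Kcnj5, a subunit of the acetylcholine-activated channel, had 24.5, 28.5 and 28.6 FPKM with amiodarone and 22.3, 15.8 and 17.6 FPKM in controls (0.54 ± 0.11 log2, limma adjusted p = 0.00287). Kcnj12 had 13.4, 11.1 and 12.9 FPKM with amiodarone and 10.2, 8.22 and 9.12 FPKM in controls (0.40 ± 0.08 log2, limma adjusted p = 0.00201). Its fellow subunit of the resting inward rectifier, Kcnj2, was lower, at 4.48, 6.16 and 4.87 FPKM with amiodarone and 8.28, 6.80 and 6.83 FPKM in controls (-0.43 ± 0.12 log2, limma adjusted p = 0.0157), although without amiodarone 1 or control 1 its limma adjusted p was 0.0734 and 0.0619. Kcnj12 and Kcnj2, which form the same current, thus differed in direction, and both directions held after rescaling and after correction.

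Among the other channels, Cacna1c, the pore of the L-type calcium channel, had 26.8, 30.7 and 28.8 FPKM with amiodarone and 30.4, 26.2 and 27.8 FPKM in controls, which overlapped fully (0.03 ± 0.10 log2, limma adjusted p = 0.826). The pacemaker channel Hcn4 was low in every library, at 1.19, 2.23 and 1.33 FPKM with amiodarone and 0.740, 0.380 and 0.630 FPKM in controls. It reached the filter only through the amiodarone libraries, so its difference is given without a test.

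Adrenergic receptors and the cyclases behind them gave 7 higher and 4 lower of 19 tested. These were 36.8% and 21.1%, against 8.65% and 21% of all genes, so the lower share as deposited was near the background. The counts were 9 and 3 after rescaling, 8 and 2 after correction, and 4 and 3 without amiodarone 2 and control 3. Adrb1, the main β-adrenergic receptor of the heart, had 18.2, 16.4 and 15.1 FPKM with amiodarone and 13.0, 12.5 and 12.8 FPKM in controls (0.34 ± 0.09 log2, limma adjusted p = 0.0103; 0.0531 without amiodarone 1 and 0.0629 without amiodarone 2 and control 3). Adcy5, a main cardiac adenylyl cyclase, had 34.2, 34.9 and 29.7 FPKM with amiodarone and 21.7, 17 and 19.6 FPKM in controls (0.74 ± 0.09 log2, limma adjusted p = 1.0e-04). The protein kinase A regulatory subunit Prkar2a rose by 0.62 ± 0.10 log2 and the anchoring protein Akap6 by 0.56 ± 0.09 log2. Gnas, which encodes the stimulatory G protein, fell to 989, 983 and 980 FPKM with amiodarone, against 1245, 1163 and 1174 FPKM in controls (-0.28 ± 0.05 log2, limma adjusted p = 0.00149). The receptor, cyclase and kinase anchor were therefore higher while the G protein between them was lower, on each of the 3 scales.

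Calcium handling centres on the cycle of release and re-uptake at the sarcoplasmic reticulum. Of its 22 tested members, 6 rose and 5 fell (7 and 2 after rescaling, 7 and 5 after correction). As deposited the lower share was 22.7%, near the 21% of all genes. Slc8a1 (Entrez 20541), the sodium-calcium exchanger that extrudes calcium, had the largest change of the list, with 35.7, 47.4 and 31.3 FPKM with amiodarone and 16.0, 14.7 and 16.1 FPKM in controls (1.22 ± 0.16 log2, limma adjusted p = 1.6e-04). Atp2a2, the calcium pump of the reticulum, had 2146, 2352 and 2235 FPKM with amiodarone and 1465, 1320 and 1339 FPKM in controls (0.71 ± 0.09 log2, limma adjusted p = 1.2e-04). The release channel Ryr2 had 54.0, 65.9 and 56.4 FPKM with amiodarone and 37.8, 39.9 and 36.3 FPKM in controls (0.61 ± 0.12 log2, limma adjusted p = 0.00205). Jph2, which couples the reticulum to the cell membrane, rose by 0.46 ± 0.06 log2. Phospholamban (Pln), the inhibitor of the pump, stood at 1329, 1473 and 1509 FPKM with amiodarone and 1515, 1251 and 1222 FPKM in controls, with overlap and no call (limma adjusted p = 0.235; 0.0252 without control 1 and 0.00411 after correction).

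Of 15 tested members of gap junctions and the intercalated disc, the structure that joins cardiomyocytes end to end, 8 rose and 0 fell (9 and 0 on both other scales), and 6 to 9 rose with any 1 library left out. Their median difference was 0.28 log2. Desmoplakin (Dsp) had 105, 116 and 99.9 FPKM with amiodarone and 79.4, 64.1 and 69.5 FPKM in controls (0.59 ± 0.09 log2, limma adjusted p = 2.8e-04). N-cadherin (Cdh2) had 88.2, 96.8 and 91.0 FPKM with amiodarone and 75.3, 62.3 and 64.6 FPKM in controls (0.45 ± 0.08 log2, limma adjusted p = 7.9e-04). Gja1, which encodes the main ventricular connexin, had 213, 224 and 204 FPKM with amiodarone and 191, 164 and 175 FPKM in controls (0.28 ± 0.07 log2, limma adjusted p = 0.00942; 0.0536 without control 2 and 0.0932 without amiodarone 2 and control 3).

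The adult sarcomere list gave 12 of 26 members higher and 0 lower (13 and 0 after rescaling, 15 and 0 after correction, and 6 without control 3), with a median of 0.15 log2. Nrap, an anchor of growing myofibrils, had 115, 112 and 129 FPKM with amiodarone and 79.3, 71.7 and 69.2 FPKM in controls (0.68 ± 0.08 log2, limma adjusted p = 7.3e-05). The M-band protein Myom1 rose by 0.50 ± 0.07 log2 and cardiac myosin-binding protein C (Mybpc3) by 0.42 ± 0.07 log2. The cardiac transcription factors, which specify this muscle, gave 11 of 22 higher and 1 lower (13 and 0, then 12 and 0, and 7 higher without control 2). Tead1, the DNA-binding partner of YAP, had 24.2, 26.6 and 22.4 FPKM with amiodarone and 17.1, 16.5 and 16.7 FPKM in controls (0.51 ± 0.09 log2, limma adjusted p = 0.00120), and Gata6 rose by 0.38 ± 0.08 log2. Without amiodarone 2 and control 3 together, 6 sarcomere members and 3 transcription factors were called higher. As a background for cell make-up, 5 of 12 cardiomyocyte markers were higher and 0 lower (2 without control 3, 3 without control 2). In bulk tissue, fewer cells of a type and less RNA per cell cannot be told apart.

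**Figure D2:**
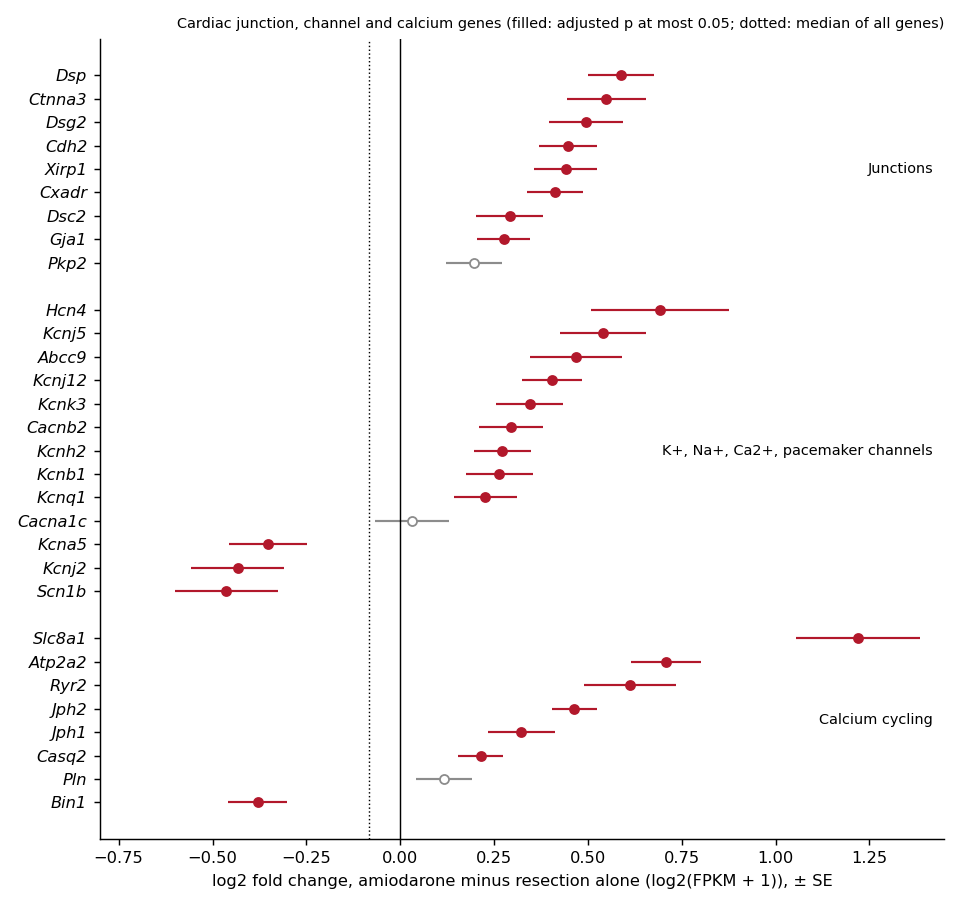
Log2 differences (amiodarone minus resection alone, ± SE, 3 libraries each) of named junction, channel and calcium handling genes, filled where the adjusted p is at most 0.05 and open where it is not. The dotted line is the median of all tested genes, -0.08, and Slc8a1 lies farthest to the right at 1.22. Hcn4 reached the filter only with amiodarone.

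Of 29 tested genes of fatty acid oxidation, 12 rose and 0 fell as deposited, 17 and 0 after rescaling and 18 and 0 after correction, 7 without amiodarone 2 or without control 3, and 4 without both. Acsl1, which activates fatty acids, had 254, 274 and 254 FPKM with amiodarone and 192, 171 and 174 FPKM in controls (0.54 ± 0.08 log2, limma adjusted p = 2.0e-04). Hadha, of the mitochondrial trifunctional protein, had 508, 524 and 510 FPKM with amiodarone and 446, 389 and 408 FPKM in controls (0.31 ± 0.05 log2, limma adjusted p = 6.5e-04). Genes of glucose uptake, glycolysis and glycogen gave 10 higher and 3 lower of 30 (13 and 0 on both other scales, and 3 and 2 without amiodarone 2 and control 3). Glycogen phosphorylase Pygb rose by 0.54 ± 0.07 log2, glycogen synthase Gys1 by 0.46 ± 0.08 log2 and the glycogen-binding protein Stbd1 by 0.71 ± 0.12 log2.

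Oxidative phosphorylation gave a split that depended on scale, with 5 members higher and 12 lower of 45 as deposited, 6 and 0 after rescaling and 11 and 0 after correction. Its members are short, with a median transcript of 983 bases, and the lower count was 1, 0, 5 and 0 without amiodarone 1, amiodarone 2, control 1 or control 2. The longer subunits Ndufs1 (0.38 ± 0.05 log2), Sdha (0.35 ± 0.06 log2) and Atp5a1 (0.27 ± 0.06 log2) of complexes I, II and V rose on every scale. Cytosolic ribosomal proteins, also short, with a median of 834 bases, gave 0 higher and 26 lower of 38 as deposited, but 0 and 5 after rescaling and 1 and 2 after correction, and the lower count was 9 without amiodarone 2 and 14 without control 2. For these lists no direction is given.

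Thyroid hormone signalling, which the drug's iodine and structure touch, showed 4 of 12 members higher and 0 lower (5 and 0, then 3 and 0; 2 without amiodarone 2 and 1 without control 2). Thra, the main cardiac thyroid hormone receptor, had 99.8, 83.0 and 91.4 FPKM with amiodarone and 94.2, 75.8 and 88.5 FPKM in controls, which overlapped (limma adjusted p = 0.450). Rxra, its dimer partner, had 23.2, 21.3 and 21.5 FPKM with amiodarone and 18.5, 17.4 and 19.5 FPKM in controls (0.24 ± 0.06 log2, limma adjusted p = 0.00884). Genes that respond to the hormone gave 4 higher and 4 lower of 24 (5 and 3, then 6 and 1, with 1 lower without amiodarone 2). Each share was 16.7% as deposited, against 8.65% higher and 21% lower of all genes, so the lower share was below the background. Hcn4, among the 4 higher, reached the filter only through the amiodarone libraries, so its call is no support. Of the classic pair, adult myosin heavy chain Myh6 had 5841, 5647 and 6036 FPKM with amiodarone and 4912, 5059 and 4618 FPKM in controls (0.26 ± 0.07 log2, limma adjusted p = 0.0130; 0.0539 without control 3, 0.0765 without amiodarone 2 and control 3, and 0.0907 with no filter on low values). Fetal Myh7, which the hormone represses, was scattered at 303, 143 and 54.2 FPKM with amiodarone and 150, 51.9 and 153 FPKM in controls (limma adjusted p = 0.676).

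Lysosomal and phospholipid breakdown genes, the site of the drug's storage effect, gave 1 higher and 8 lower of 48 as deposited, 6 and 3 after rescaling and 4 and 5 after correction. The lower shares were 16.7%, 6.25% and 10.4%, against 21%, 8.63% and 9.14% of all genes. With all libraries the list was thus near the background. Control 1 decided much of the deposited lower count, since 23 were lower without it. That count was 4 without control 2 or 3, amiodarone 1 or amiodarone 2, and 1 without amiodarone 2 and control 3. Pla2g15, the lysosomal phospholipase that amiodarone is known to inhibit, had 4.26, 4.83 and 5.32 FPKM with amiodarone and 5.61, 8.31 and 8.98 FPKM in controls (-0.55 ± 0.14 log2, limma adjusted p = 0.00849; 0.0925 without amiodarone 2 and control 3). Acid sphingomyelinase Smpd1 moved the other way, with 69.3, 68.7 and 73.0 FPKM with amiodarone and 59.0, 55.6 and 57.2 FPKM in controls (0.29 ± 0.06 log2, limma adjusted p = 0.00346). Cholesterol synthesis and uptake had 3 of 29 members higher and 2 lower (5 and 1, then 4 and 0; 1 higher without amiodarone 2, amiodarone 3 or control 3), which is near the background, with the clearest change in Hsd17b7, a late enzyme of the pathway (0.61 ± 0.12 log2, limma adjusted p = 0.00178).

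Of 37 tested mitosis genes, 0 were higher and 17 lower with amiodarone, against 8.65% and 21% of all genes, with 0 and 11 after rescaling and 0 and 12 after correction. Their median was -0.36 log2, against -0.08 for all genes, and all 3 amiodarone libraries lay below all 3 controls for 31 of the 37, where 31% of all genes did so and 44.1% did not overlap in either direction. The count was 6 without amiodarone 2, 9 without control 2 and 4 without amiodarone 2 and control 3 together. Cks2, which binds cyclin-dependent kinases, had 20.5, 14.8 and 19.2 FPKM with amiodarone and 27.1, 34.9 and 30.3 FPKM in controls (-0.73 ± 0.12 log2, limma adjusted p = 4.8e-04). Ube2c, the ubiquitin-conjugating enzyme of the anaphase-promoting complex, had 42.1, 32.7 and 44.8 FPKM with amiodarone and 56.0, 73.0 and 61.6 FPKM in controls (-0.66 ± 0.13 log2, limma adjusted p = 0.00232). The proliferation marker Mki67 had 7.26, 6.59 and 7.07 FPKM with amiodarone and 8.25, 9.15 and 8.46 FPKM in controls, lower in each library but not called (-0.27 ± 0.14 log2, limma adjusted p = 0.134).

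DNA replication genes were near the background, with 0 higher and 10 lower of 38 (26.3%, against 21% of all genes), 4 lower (10.5%) after rescaling, against 8.63%, or after correction, against 9.14%, and 5, 6 and 5 without amiodarone 1, amiodarone 3 or control 2, and 3 without amiodarone 2 and control 3. Rrm2, the regulatory subunit of ribonucleotide reductase, had 32.2, 28.5 and 29.5 FPKM with amiodarone and 38.3, 48.4 and 53.3 FPKM in controls (-0.61 ± 0.14 log2, limma adjusted p = 0.00537; 0.0851 without amiodarone 2 and control 3). Cyclins of the G1 phase parted. Ccne1 fell to 3.41, 3.14 and 2.33 FPKM with amiodarone, against 4.21, 5.61 and 4.41 FPKM in controls (-0.54 ± 0.11 log2, limma adjusted p = 0.00232), while Ccnd2 rose to 64.2, 72.3 and 59.4 FPKM with amiodarone, against 52.7, 46.6 and 48.3 FPKM in controls (0.40 ± 0.08 log2, limma adjusted p = 0.00138). Against the other 4 drugs the mitosis list had 0 members called in either direction and a median of -0.11 log2.

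**Figure D3:**
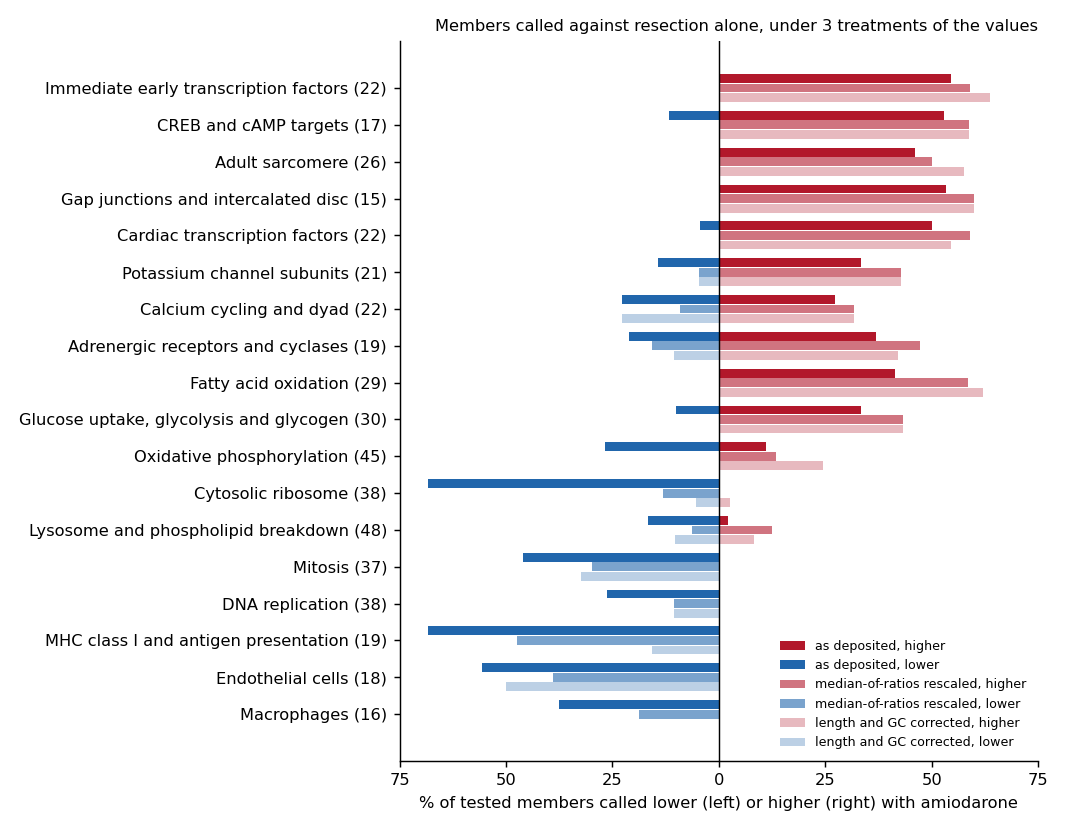
Percent of the tested members of each gene list (number in brackets) called higher (right, red) or lower (left, blue) with amiodarone than after resection alone, with a bar each for the values as deposited, rescaled, and corrected for length and GC. Immediate early genes and fatty acid oxidation have bars to the right alone and mitosis to the left alone, whereas the ribosome bar covers 26 of 38 members as deposited and 5 when rescaled.

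Of 19 tested genes of the MHC class I pathway, which displays peptides to cytotoxic T cells, 0 were higher and 13 lower with amiodarone, with 9 lower after rescaling and 3 after correction, and the list's median was -0.91 log2. B2m (Entrez 12010), the invariant light chain of class I molecules, had 137, 136 and 232 FPKM with amiodarone and 839, 404 and 400 FPKM in controls (-1.65 ± 0.50 log2, limma adjusted p = 0.0200). The groups did not overlap, yet the call was lost without amiodarone 1, amiodarone 2 or control 1, with limma adjusted p of 0.0642, 0.0713 and 0.0774, without amiodarone 2 and control 3 at 0.0864, and after correction at 0.0508. Control 1 was the highest of the 6 libraries for all 19 genes. H2-D1, a class I heavy chain, had 101, 87.2 and 151 FPKM with amiodarone and 509, 245 and 263 FPKM in controls (-1.54 ± 0.44 log2, limma adjusted p = 0.0159; 0.0661 without amiodarone 2, 0.0655 without control 1 and 0.0853 without amiodarone 2 and control 3). The class II invariant chain Cd74 had 6.90, 14.9 and 14.9 FPKM with amiodarone and 54.6, 26.2 and 25.8 FPKM in controls (-1.44 ± 0.48 log2, limma adjusted p = 0.0322; 0.137, 0.0521 and 0.121 without amiodarone 1, amiodarone 2 or control 1, 0.0665 without amiodarone 2 and control 3, and 0.0737 after correction). The list as a whole kept 4, 2 and 2 calls without amiodarone 1, amiodarone 2 or control 1, and 2 without amiodarone 2 and control 3.

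H2-T23, a non-classical class I gene, held its call with any 1 library left out, with 14.5, 14.9 and 17.3 FPKM with amiodarone and 32.1, 26.3 and 23.4 FPKM in controls (-0.76 ± 0.16 log2, limma adjusted p = 0.00268 with all libraries). H2-Q4 and the immunoproteasome subunit Psmb9 fell by 1.26 ± 0.39 and 1.14 ± 0.34 log2, and both calls were lost without amiodarone 1, amiodarone 2 or control 1, with limma adjusted p of 0.0545 to 0.103. For H2-Q4 and Psmb9 the limma adjusted p was also 0.0817 and 0.0624 without amiodarone 2 and control 3, and 0.0508 and 0.0547 after correction. H2-Q8 had 0.680, 2.26 and 3.91 FPKM with amiodarone and 33.8, 10.3 and 13.4 FPKM in controls. H2-Q9 was listed at 0, 0 and 1.34 FPKM with amiodarone and at 17.4, 3.93 and 8.46 FPKM in controls. These Q-region genes are near-identical copies, so how their reads were divided is uncertain. In the other 4 drug groups the B2m means ran from 153 to 295 FPKM, around the amiodarone mean of 168 ± 55.1 FPKM, and single libraries from 100 to 631 FPKM.

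The B2m promoter is shown because its window holds an interferon-stimulated response element core, the site read by interferon regulatory factors. The 250 bases before the RefSeq start site on GRCm38.p6 lie at chr2:122147437-122147686 on the plus strand, with the core, a pair of GAAA runs 2 bases apart, in capitals where it matched on either strand.
B2m: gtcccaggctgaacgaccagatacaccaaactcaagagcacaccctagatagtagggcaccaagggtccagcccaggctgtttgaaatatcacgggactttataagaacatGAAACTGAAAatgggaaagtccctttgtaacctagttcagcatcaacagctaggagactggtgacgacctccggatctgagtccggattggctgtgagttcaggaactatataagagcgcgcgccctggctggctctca
It matched 1 time here, and in 2 of the 15 members of the list with a promoter (13.3%), against 3.46% of all 27025 genes. The CRE core TGACG was in 9 of the same 15 promoters (60%), nearly the share found in the immediate early genes. Interferon-responsive genes themselves gave 0 higher and 1 lower of 24 against resection alone, and 5 lower without amiodarone 3.

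**Figure D4:**
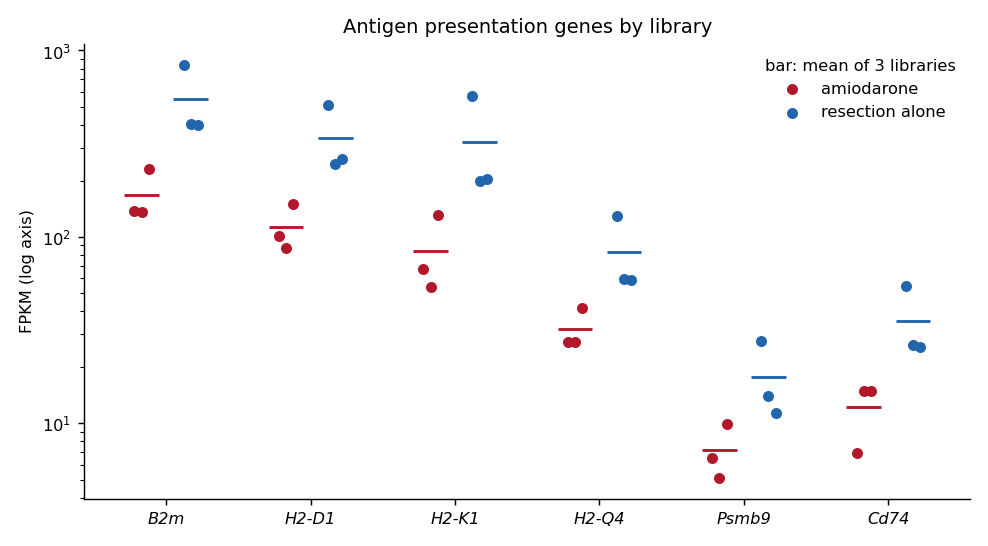
FPKM on a log axis of 6 antigen presentation genes in the 3 amiodarone (left in each pair) and 3 resection alone libraries (right), with a bar at each mean. The amiodarone points lie below all control points for each gene, as they do for 31% of all tested genes. Control 1 is the top point throughout, at 839 FPKM for B2m against 400 and 404 FPKM in the other controls.

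Of 16 tested chemokine and cytokine genes, 0 were higher and 6 lower (6 after rescaling, 5 after correction, 4 to 8 with any 1 library left out and 3 without amiodarone 2 and control 3). Cxcr4 (Entrez 12767), the receptor for the homing chemokine Cxcl12, had 5.93, 5.95 and 5.70 FPKM with amiodarone and 14.7, 16.8 and 16.1 FPKM in controls (-1.30 ± 0.14 log2, limma adjusted p = 3.5e-05). Cxcl12 itself fell to 44.7, 47.6 and 53 FPKM with amiodarone, against 56.7, 87.5 and 72.8 FPKM in controls (-0.55 ± 0.12 log2, limma adjusted p = 0.00406). Receptor and ligand were thus both lower, and Cxcr4 was also low with the other 4 drugs, at group means of 3.95 to 6.41 FPKM.

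Endothelial markers were lower as well, with 0 of 18 higher and 10 lower (7 after rescaling, 9 after correction, and 5 without amiodarone 2 and control 3). Their summed level was 1781 to 1899 FPKM with amiodarone and 2144 to 2402 FPKM in controls. In the 12 libraries of the other 4 drugs it was 1769 to 2081 FPKM, and 0 members were called against those drugs. Sox18, an endothelial transcription factor, had 69.7, 58.1 and 68.9 FPKM with amiodarone and 112, 89.7 and 104 FPKM in controls (-0.63 ± 0.09 log2, limma adjusted p = 2.8e-04), and its relative Sox17 fell by 0.51 ± 0.07 log2. Endomucin (Emcn), a capillary and venous marker, fell by 0.36 ± 0.06 log2. The part of endothelial cell number in the fall of Cxcr4, which these cells also express, was not tested.

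Macrophage markers gave 0 higher and 6 lower of 16 as deposited, 3 after rescaling and 0 after correction. Their sums were 279, 359 and 392 FPKM with amiodarone and 364, 767 and 799 FPKM in controls 1 to 3, so control 1 lay within the amiodarone range, and the count was 11 without it, 2 without amiodarone 2, and 0 without control 2, amiodarone 1, or amiodarone 2 and control 3 together. Fcgr4, an antibody receptor of these cells, had 1.15, 0.810 and 1.32 FPKM with amiodarone and 3.12, 3.34 and 2.74 FPKM in controls (-0.96 ± 0.21 log2, limma adjusted p = 0.00367), and held its call with any 1 library left out. It would not have reached the filter without the controls, so that call is no support. Among controls, control 1 thus held the lowest macrophage sum and the highest B2m. Lymphocyte markers were near the floor in all libraries, with sums of 3.22 to 4.88 FPKM with amiodarone and 4.85 to 10.9 FPKM in controls, the highest in control 1, and 0 of them passed the filter. Their part in the fall of the MHC genes was not tested. Fibroblast markers gave 0 higher and 2 lower of 12 (2, then 0; 7 without control 1).

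Some genes of the mesothelium, the outer cell layer of the heart, were higher. Of 12 tested epicardial and mesothelial markers, 5 were higher and 0 lower on each of the 3 scales, and 4 or 5 with any 1 library left out, but 1 without amiodarone 2 and control 3 together. Lrrn4, among the 5, reached the filter only through the amiodarone libraries. Upk3b, Upk1b and Msln would not have reached it without amiodarone either, so this count is a description and no support. Upk3b, a mesothelial uroplakin, had 10.2, 9.55 and 8.11 FPKM with amiodarone and 1.61, 3.23 and 0.480 FPKM in controls (2.01 ± 0.49 log2, limma adjusted p = 0.00668; 0.0842 without both of those libraries). Its relative Upk1b rose by 1.24 ± 0.32 log2 (limma adjusted p = 0.00949; 0.0692 without both). Mesothelin (Msln) had 13.2, 9.42 and 9.05 FPKM with amiodarone and 2.48, 3.75 and 0.890 FPKM in controls (1.86 ± 0.49 log2, limma adjusted p = 0.00988; 0.05004 without control 3 and 0.0912 without both). Wt1, a factor of the epicardium that also marks its activation after injury, did not follow, at 7.97, 7.04 and 6.80 FPKM with amiodarone and 6.94, 5.98 and 6.43 FPKM in controls (0.15 ± 0.11 log2, limma adjusted p = 0.302). The other 4 drugs had Upk3b group means of 5.4 to 7.53 FPKM. How much surface tissue each apex sample included is not given, and its part in these differences was not tested.

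Several other genes were named by the size of their change. Nt5c1a, a cytosolic nucleotidase that makes adenosine from AMP, had 5.09, 7.80 and 4.86 FPKM with amiodarone and 1.27, 1.07 and 0.950 FPKM in controls (1.70 ± 0.25 log2, limma adjusted p = 2.8e-04). Apold1, an endothelial early response gene, had 22.7, 18.5 and 19.2 FPKM with amiodarone and 8.77, 6.89 and 8.01 FPKM in controls (1.25 ± 0.15 log2, limma adjusted p = 9.2e-05). It rose although 10 of 18 endothelial markers were lower and 0 higher. Pakap, a locus that includes a protein kinase A anchoring gene, rose by 1.51 ± 0.19 log2. Efemp1, an extracellular matrix fibulin, rose by 1.22 ± 0.27 log2. Among the falls, Clk1, a kinase that phosphorylates splicing factors, had 14.5, 19.1 and 21.1 FPKM with amiodarone and 40.5, 38.0 and 38.2 FPKM in controls (-1.07 ± 0.11 log2, limma adjusted p = 2.3e-05). The stress gene Gadd45b had 4.15, 5.18 and 3.69 FPKM with amiodarone and 10.2, 12 and 9.88 FPKM in controls (-1.14 ± 0.15 log2, limma adjusted p = 1.6e-04). Tnfsf13, a cytokine of the TNF family, fell by 1.03 ± 0.17 log2. These 7 calls held on all 3 scales and with any 1 library left out. However, Nt5c1a and Efemp1 would not have reached the filter without amiodarone, nor Tnfsf13 without the controls, so those calls are no support. Against the other 4 drugs these 7 genes were not called, with limma adjusted p of 0.234 for Tnfsf13 to 0.999 for Gadd45b. Nt5c1a, for example, had group means of 4.13 to 6.20 FPKM with those drugs. Rsc1a1 fell by 1.14 ± 0.30 log2, with a limma adjusted p of 0.00942, and of 0.0606 without amiodarone 2 and control 3. The chemokine Ccl5 and the leukocyte antigen Cd52 fell by 1.08 ± 0.35 and 0.97 ± 0.25 log2. The Ccl5 call was lost without amiodarone 1, amiodarone 2, control 1 or control 2, without amiodarone 2 and control 3 (limma adjusted p = 0.0651) and after correction (0.0907), and that of Cd52 without control 2 (limma adjusted p = 0.0602).

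Against the other 4 anti-arrhythmic groups, amiodarone differed in few genes. Of 12171 tested, 24 were higher (0.197%) and 13 lower (0.107%) than the average of metoprolol, propranolol, lidocaine and ivabradine, and 20 and 15 after rescaling. These calls depended on each amiodarone library. By limma, 0 genes were called without amiodarone 1 and 0 without amiodarone 2, with 809 and 796 genes at an unadjusted p of 0.05 or less, and 14 genes were called without amiodarone 3. The count also came to 12 to 22 without metoprolol 2 or 3, propranolol 2 or 3, lidocaine 1 or 2 or ivabradine 3, and to 3 without amiodarone 2 and control 3. The differences below are therefore given with their values in every amiodarone library, and each call named in this comparison was lost without amiodarone 1 and without amiodarone 2, with limma adjusted p of 0.0555 to 0.368. Among potassium channels, adrenergic genes, calcium handling and the adult sarcomere, 0 members were called either way here. The same held for cardiac transcription factors, fatty acid oxidation, thyroid hormone signalling and the lysosome. Medians of these lists ran from -0.03 to 0.06 log2, so their differences from resection alone are not shown to be particular to amiodarone.

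Neutrophil granule genes led the higher side. Of 10 tested neutrophil markers, 5 were called higher than with the other 4 drugs and 0 lower, where 0.197% of all genes were called higher. The filter used only amiodarone and control libraries, and Ltf, Camp, Ngp and Lcn2 would not have reached it without amiodarone, so this count is a description and no support. Ngp, a granule protein of maturing neutrophils, had 7.07, 5.09 and 9 FPKM with amiodarone and 0.570 to 3.56 FPKM in the 12 other libraries (1.58 ± 0.26 log2, limma adjusted p = 0.0188). Lactoferrin (Ltf), an iron-binding protein of specific granules, had 2.24, 1.70 and 2.40 FPKM with amiodarone and 0.260 to 1.2 FPKM in the others (0.98 ± 0.15 log2, limma adjusted p = 0.0131). Cathelicidin (Camp), an antimicrobial peptide, had 2.39, 2.63 and 3.72 FPKM with amiodarone and 0.290 to 1.26 FPKM in the others (1.24 ± 0.21 log2, limma adjusted p = 0.0188), and Lcn2, which binds bacterial siderophores, 3.23, 4.76 and 4.66 FPKM against 0.330 to 1.63 FPKM (1.36 ± 0.27 log2, limma adjusted p = 0.0386). Stfa3, a stefin, and Retnlg, a resistin-like protein of neutrophils, were 1.56 ± 0.23 and 1.23 ± 0.25 log2 higher. The alarmins S100a8 and S100a9 showed the same order at higher levels, with 24.3, 24 and 27.1 FPKM of S100a8 with amiodarone and 3.83 to 10.7 FPKM in the others, but missed the threshold (limma adjusted p = 0.0535 and 0.0564). Cxcr2 and Mmp9, also tested markers, did not follow. Cxcr2 had 1.27, 1.82 and 2.03 FPKM with amiodarone, 1.17 to 2.33 FPKM in the others and 1.99, 3.03 and 2.52 FPKM in controls. Mmp9 had 1.18, 2.60 and 1.70 FPKM with amiodarone, 0.310 to 9.16 FPKM in the others and 0.540, 9.22 and 8.27 FPKM in controls.

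The 14 neutrophil markers summed to 80.0, 80.2 and 90.2 FPKM with amiodarone, to 15.8 to 35.6 FPKM over the 12 libraries of the other drugs, and to 26.1, 156 and 32.6 FPKM in controls 1 to 3. The 3 amiodarone libraries were thus close to each other and apart from the other drugs, but control 2 lay above them all. Most of these sums was S100a8 and S100a9, at 24.3 and 31.5 FPKM in amiodarone 1 and 54.45 and 62.2 FPKM in control 2. The sums are therefore not separate from those genes. Against resection alone, with the same limit of the filter, 4 of 10 markers were higher and 1 lower, and 7 higher and 0 lower without control 2 but 2 higher without control 3. Without control 2 the S100a9 difference was 1.90 log2 (limma adjusted p = 1.2e-04), whereas with all libraries the difference was 0.95 ± 0.48 log2 (limma adjusted p = 0.140). The primary granule genes Elane and Mpo, made by immature cells, were at most 0.12 FPKM in each of the 6 libraries, and Ly6g at most 0.600 FPKM.

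Interferon-related genes were also among the higher calls, with 3 of 24 tested members called higher than with the other drugs, where 0.197% of all genes were. The list median was 0.36 log2. Rtp4, an interferon-induced chaperone of receptors, had 5.94, 6.06 and 6.88 FPKM with amiodarone and 2.99 to 5.02 FPKM in the 12 others (0.61 ± 0.11 log2, limma adjusted p = 0.0241). Irf9, the DNA-binding part of the complex that type I interferon activates, had 13.6, 13.3 and 17.3 FPKM with amiodarone and 7.55 to 11.6 FPKM in the others (0.57 ± 0.12 log2, limma adjusted p = 0.0475, and 0.0514 after rescaling). Controls had 7.66, 6.17 and 5.01 FPKM of Rtp4 and 19.6, 13.8 and 13.5 FPKM of Irf9, and those ranges overlapped the amiodarone values for both. Stat2, the partner of Irf9, was 0.45 ± 0.09 log2 higher than with the other drugs (limma adjusted p = 0.0497, and 0.0562 after rescaling), and the class I gene H2-T24 0.43 ± 0.08 log2. The calls of Irf9 and Stat2 were each lost under 20 alternative settings. The connexin Gja1 was 0.30 ± 0.06 log2 higher than with the other drugs (limma adjusted p = 0.0341), and the matricellular gene Cyr61 0.52 ± 0.09 log2 (limma adjusted p = 0.0228).

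On the lower side, Ddit4, a hypoxia and glucocorticoid induced inhibitor of mTOR, had 14.5, 14.3 and 20 FPKM with amiodarone, 20.1 to 39.0 FPKM in the 12 other drug libraries and 34.3, 32.8 and 29.8 FPKM in controls. Both comparisons use the same amiodarone libraries. The difference was -0.69 ± 0.13 log2 against the other drugs (limma adjusted p = 0.0341) and -0.96 ± 0.17 log2 against resection alone (limma adjusted p = 8.1e-04). Klf9, a factor induced by glucocorticoid and thyroid hormone, had 11.2, 12.2 and 13.0 FPKM with amiodarone and 14.0 to 19.5 FPKM with the other drugs (-0.40 ± 0.07 log2, limma adjusted p = 0.0237), while controls had 10.2, 12.3 and 10.8 FPKM. Pxdc1 and Palmd were lower than with the other drugs, at -0.36 ± 0.07 and -0.32 ± 0.06 log2. The clock output gene Dbp was higher, at 33.6, 58.1 and 36.8 FPKM with amiodarone and 22.5 to 33.1 FPKM with the other drugs (0.68 ± 0.12 log2, limma adjusted p = 0.0246). The hour of sampling is not given, and its part in the differences of clock genes was not tested.

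**Figure D5:**
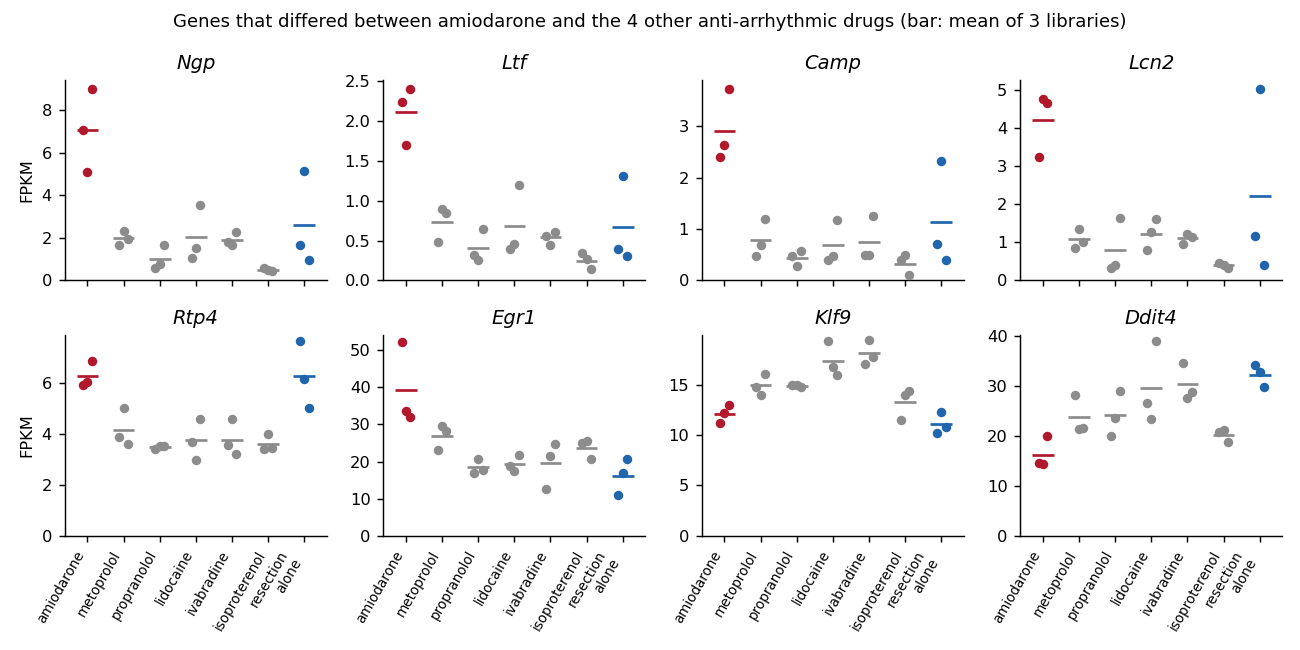
FPKM (linear axes from 0) of 8 genes that differed between amiodarone and the 4 other anti-arrhythmic drugs, with a point per library and a bar at each mean of 3 libraries. Isoproterenol is drawn too, though neither comparison includes it. Amiodarone is on the left and resection alone on the right. The amiodarone points lie outside the 12 points of the other 4 drugs in every panel. The genes were chosen for that separation, which 0.920% of all tested genes showed, so it is no further result. For Ngp, control 2, at 5.16 FPKM, lies among the amiodarone points.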

How the data were processed

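RNA of mouse heart apex was sequenced on the BGISEQ-500, per the labels. The authors deposited FPKM values per gene in 1 table of 21 libraries, 7 groups of 3. The submitters' processing notes name HISAT, Bowtie2 2.2.5 and the mm9 build without their roles. The annotation, the counter and strandedness are not given in the sources used here, and the labels' protocols allow either oligo dT selection or ribosomal RNA depletion. No read counts are given, so depth is unknown in absolute terms. Relative depth was read from 43 low genes whose values are whole multiples of a step within 12%, and the submitted table held 0 columns of no sample.

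Genes that reached 1 FPKM in 3 or more of the 6 libraries were tested on log2(FPKM + 1) with limma 3.58.1 in R 4.3.3, fitting 7 group means with a variance trend and 14 residual degrees of freedom, and p-values were adjusted by Benjamini-Hochberg over all tested genes with a threshold of 0.05. Fold changes are on that scale and understate changes of low genes. All 21 libraries share the estimate of spread. Python 3.11.15 with pandas 2.3.3 and matplotlib 3.10.9 was used for sequences and figures.

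Named genes were the 15 with the largest change each way, and against the 4 other drugs the 10 largest each way where as many qualified, that were called on the deposited and the rescaled values, did not overlap the other libraries and averaged at least 1 FPKM in 1 group. Members of drug target lists, up to 6 called members of other lists, and markers of other tissues were added. The members and lists were chosen with earlier results of these data known. Rescaling used medians of ratios, and the length and GC correction used splines with 4 degrees of freedom per library, with lengths matched for 97.1% of genes. That correction, and rescaling together with leaving out amiodarone 2 and control 3, were chosen after seeing the data. Other alternatives were the pseudocount, the filter, moderation settings, a Y-linked covariate, a replicate block, only the groups compared, and leaving out each library. The fit was tested on simulated data. Promoter sequences are from RefSeq. Some genes that the rule names are not reported here.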

Additional observations from a re-analysis of the deposited data

How the results depend on the processing

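Against resection alone, leaving out 1 library gave 2053 to 3398 called genes, 642 to 1013 higher and 1411 to 2385 lower, with the fewest without amiodarone 2. Rescaling gave 1867 higher and 1050 lower, the length and GC correction 1628 and 1112, leaving out amiodarone 2 and control 3 gave 1294 genes (427 and 867), and both that and rescaling 1248 genes, 331 of them lower. Against the other 4 drugs, leaving out 1 library gave 0 to 54 called genes by limma, 0 to 41 higher and 0 to 17 lower. The 0 stood without amiodarone 1 or amiodarone 2, where 809 and 796 genes had an unadjusted p of 0.05 or less. The count was 9 (7 higher, 2 lower) with no filter on low values, 58 (40 higher) with the Y-linked covariate, 56 (26 lower) after the length and GC correction, and 3 (3 higher, 0 lower) without amiodarone 2 and control 3, with or without rescaling. The cause of these shifts was not tested.

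Of 125 gene results, 110 were called, and 61 of these kept direction and call under every alternative, while 0 changed direction. Uncalled genes changed sign in these cases: the Cacna1c difference was -0.024 log2 without amiodarone 2 and control 3, -0.031 after the length and GC correction and -0.016 to 0.088 with 1 library left out. With 1 library left out, Thra ranged from -0.0028 to 0.153 log2 and Myh7 from -0.264 to 0.966 log2. Libraries with the same number had residual correlations of 0.17, 0.04 and -0.11, so the numbers do not pair them, and a replicate block gave 3446 called genes against resection alone and 34 against the other drugs. Absolute depth is unknown, which leaves the precision of genes near 1 FPKM unmeasured.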
